A study of Mus musculus with 24 samples.

Results

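The comparison described here is that of neural progenitor cells (NPC) carrying the Q20 knock-in allele of Htt with wild-type (WT) NPC. It was chosen by the sample labels alone, which gave 2 Q20 and 2 WT NPC libraries, 4 of the 24 libraries of the series. The Q20 cells are heterozygous: 1 Htt allele (the locus is also called Hdh) carries a knocked-in tract of 20 CAG repeats and the other is unmodified. The WT cells are labelled wild type. The series also holds NPC with an Htt knockout (KO) and with knock-in alleles of 50, 92 and 111 CAG repeats (Q50, Q92 and Q111), and mouse embryonic stem cells (mESC) of all 6 genotypes, each with 2 libraries. In all genotypes the mESC were kept with leukemia inhibitory factor on irradiated mouse embryonic fibroblast feeders. They were then taken without feeders through a 7-day neural induction and expanded as adherent NPC on laminin with FGF and EGF. The labels name 1 line per allele and do not say whether the WT line is the parent of the Q20 line, so an effect of the allele and a difference between lines cannot be told apart. The design text calls the libraries biological samples and says no more on how the 2 of a group were separated, so p-values measure the spread between these samples.

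Huntingtin, the product of Htt, is a large scaffold protein that takes part in vesicle transport, autophagy and transcription, and a long CAG repeat in the first exon of its gene causes Huntington's disease. A tract of the Q20 length lies in the range that people without the disease carry, so this line holds an edited allele without an expansion. NPC grown with FGF and EGF are dividing cells of radial glial type that express Nes, Pax6, Fabp7 and Vim and can form neurons, astrocytes and oligodendrocytes. On leaving the embryonic stem cell state, cells normally silence pluripotency genes such as Pou5f1 (also called Oct4).

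The edited part of the gene is shown because it defines the groups. The line below gives the first 120 coding bases of Htt in the reference mouse genome, from GENCODE M21 on GRCm38 (chr5:34761907-34762026, plus strand, in the first exon of a gene at chr5:34761740-34912534 with 67 exons). Capitals mark its longest run of CAG codons.
Htt coding start: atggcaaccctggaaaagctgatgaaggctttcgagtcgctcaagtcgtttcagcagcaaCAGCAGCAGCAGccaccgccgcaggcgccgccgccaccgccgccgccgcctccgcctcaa
The unmodified mouse sequence thus has 4 uninterrupted CAG codons, and 7 consecutive codons of CAG or CAA, where the knock-in allele is labelled with 20. Htt itself was at 137 and 177 scaled CPM in the WT and 157 and 155 in the Q20 libraries. The Q20 values lay between the WT values, and the log2 change was 0.00066 (SE 0.14, limma adjusted p = 0.999). The values do not separate the alleles, so the level of Htt does not check the labels.

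Scaled CPM is the deposited value, a count of reads relative to library size and corrected for library composition. Every change below is a difference in log2(scaled CPM + 1), a scale that makes the changes of low genes look smaller than they are. The recovered reads were 72464779 and 84011328 in the Q20 libraries and 55557667 and 84575732 in the WT libraries. The WT libraries differed more from each other than any other pair of NPC replicates: across genes, the log2 difference of 1 replicate from the other had an SD of 0.869 for WT, 0.497 for Q20 and 0.486 to 0.689 for the other lines. The summed level of 40 mitosis genes was 4140 and 10630 in WT against 4966 and 5161 in Q20, so the Q20 libraries lay between the WT libraries in this respect too. The KO libraries were split in the same order as WT, at 4388 and 11210.

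Of 13206 tested genes, 1920 (14.5%) were called at a limma adjusted p under 0.05, of which 1317 were higher in Q20 (9.97% of tested genes) and 603 lower (4.57%). The median change over all tested genes was -0.017. Called genes with a change over 1 in size numbered 942 among the higher and 257 among the lower. At the extremes, 85 genes rose by more than 3 and 10 fell by more than 3. The groups did not overlap for 6423 genes (48.6%), 3342 with both Q20 values higher (25.3%) and 3081 with both lower (23.3%). The count of calls depends on the shared estimate of spread: 476 genes were called when only the 4 libraries compared were used, and 415 were called under all 14 alternatives that tested them. Leaving out Q20 replicate 1 or 2 gave 1014 and 1102 called genes, and leaving out WT replicate 1 or 2 gave 2846 and 2232.

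**Figure D1:**
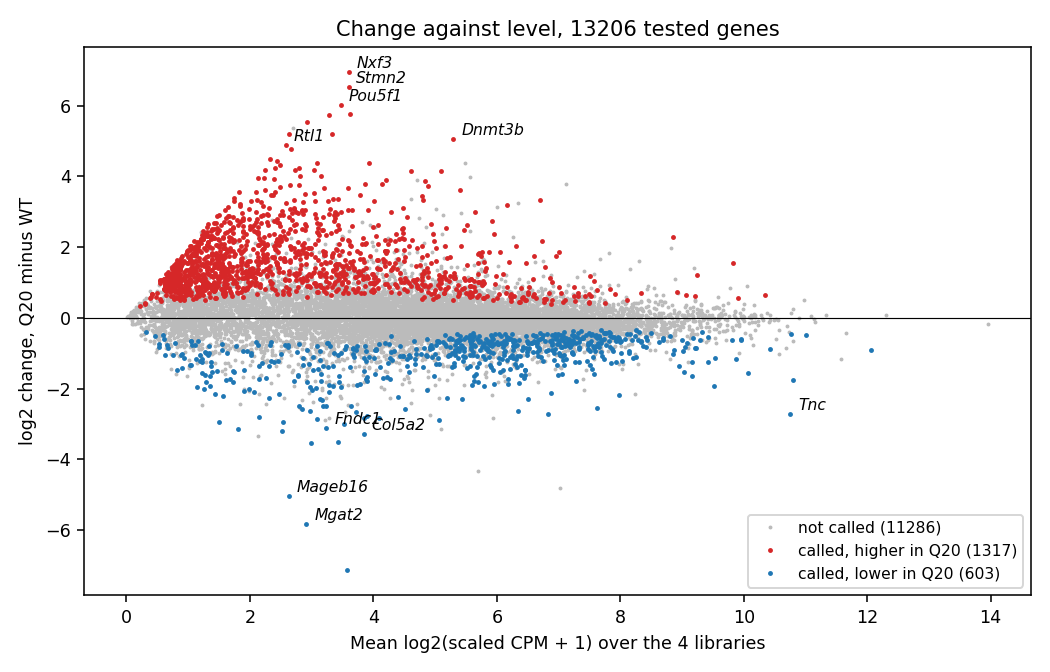
The log2 change of Q20 minus WT NPC (vertical axis) is plotted against the mean log2(scaled CPM + 1) over the 4 libraries (horizontal axis), with 1 point per tested gene. The 1317 higher genes lie mostly at low mean levels, and Nxf3, Stmn2 and Pou5f1 reach changes above 6.

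Of the 10 largest rises, 9 were genes under 1 scaled CPM in both WT libraries, and the other was Dnmt3b. Pou5f1, the transcription factor at the centre of the pluripotency network, was at 0.35 and 0.405 scaled CPM in WT and 90.1 and 87.4 in Q20, from 20 and 33 reads in WT and 7248 and 8153 in Q20. Both Q20 libraries were far above both WT libraries, with a change of 6.03 (SE 0.11, limma adjusted p = 6.81e-08). Lin28a, an RNA-binding protein that blocks let-7 maturation in stem cells, was at 0.245 and 0.405 in WT and 70.8 and 69.1 in Q20 (change 5.75, SE 0.12, adjusted p = 6.81e-08 with limma). Sall4, a zinc finger partner of POU5F1, was at 0.105 and 0.135 in WT and 47.1 and 54.6 in Q20 (change 5.53, SE 0.12). Dnmt3b, a de novo DNA methyltransferase, was expressed in WT at 4.64 and 7.28 and in Q20 at 210.1 and 241 (change 5.05, SE 0.24, limma adjusted p = 5.63e-06). For these 4 genes both Q20 values exceeded every value of the other 10 NPC libraries, whose highest values in KO, Q50, Q92 and Q111 were 0.244 for Pou5f1, 0.162 for Lin28a, 0.0709 for Sall4 and 7.64 for Dnmt3b.

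The other 6 of the 10 largest rises came from several functions. Nxf3, an X-linked member of the nuclear RNA export factor family, had the largest change, from 0 and 0.209 in WT to 132 and 136 in Q20 (change 6.94, SE 0.16, limma adjusted p = 1.01e-07). Stmn2, a microtubule regulator of growing neurites, went from 0.175 and 0.356 to 103 and 128 (change 6.52, SE 0.16). Sulf1, an enzyme that trims sulfate groups from heparan sulfate, was at 0.578 and 0.773 in WT and 90 and 90.7 in Q20 (change 5.77). Each of these genes had Q20 replicates close to each other and WT values below 1. Calcr, the calcitonin receptor, was at 0 and 0.0491 and 38.1 and 35.2 (change 5.20), and Zdbf2, an imprinted gene, at 0.596 and 0.749 and 52.9 and 68 (change 5.19). Rtl1, an imprinted gene derived from a retrotransposon, was at 0.228 and 0 in WT and 68.1 and 14.4 in Q20. Its Q20 libraries differed by several-fold, and its change of 4.88 (SE 0.56, limma adjusted p = 0.000599) had an adjusted p of 0.0651 when only the 4 libraries compared were used. The other 9 rises were called under every alternative.

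The promoters of 4 genes whose groups lie far apart are printed next, chosen after their values were seen, as the 200 bases from 250 to 51 before the start given by RefSeq on GRCm38.p6, 5′ to 3′ on the strand of the gene. Capitals mark CpG dinucleotides, the sites that DNMT3B and related enzymes methylate. Pou5f1, Lin28a and Dnmt3b were higher in Q20, and Mageb16, described below, was lower.
Pou5f1, chr17:35505782-35505981, plus strand: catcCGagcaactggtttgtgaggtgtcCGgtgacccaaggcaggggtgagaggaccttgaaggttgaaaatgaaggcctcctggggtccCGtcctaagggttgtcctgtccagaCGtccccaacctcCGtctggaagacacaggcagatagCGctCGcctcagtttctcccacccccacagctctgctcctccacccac
Lin28a, chr4:134018867-134019066, minus strand: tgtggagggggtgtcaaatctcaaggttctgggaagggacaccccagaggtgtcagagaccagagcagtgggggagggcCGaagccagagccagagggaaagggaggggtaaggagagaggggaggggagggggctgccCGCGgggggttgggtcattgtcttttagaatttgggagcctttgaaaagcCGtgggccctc
Dnmt3b, chr2:153649199-153649398, plus strand: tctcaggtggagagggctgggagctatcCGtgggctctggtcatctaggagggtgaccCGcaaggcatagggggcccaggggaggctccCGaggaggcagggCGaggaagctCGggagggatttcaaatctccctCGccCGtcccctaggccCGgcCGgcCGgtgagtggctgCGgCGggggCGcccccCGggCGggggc
Mageb16, chrX:79671486-79671685, minus strand: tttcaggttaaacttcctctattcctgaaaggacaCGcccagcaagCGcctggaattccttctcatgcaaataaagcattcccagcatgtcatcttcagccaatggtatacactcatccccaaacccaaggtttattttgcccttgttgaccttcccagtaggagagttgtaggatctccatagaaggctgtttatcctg
These windows hold 7, 4, 15 and 2 CpG in this order. There were 48 genes with at least 5 scaled CPM in both Q20 libraries and under 0.5 in both WT libraries, of which 47 were called, and their levels chose them. A promoter matched for 35 of the 48 by symbol, with the first entry used, and the median was 7 CpG in the 200 bases, against 11 over the 10249 tested genes with a promoter. At least 10 CpG were found in 12 of the 35 (34.3%) and in 5932 of the 10249 (57.9%). The octamer ATGCAAAT, the sequence that POU factors recognise, was searched on both strands. It was found in 0 of the 35 windows, in 103 of all 10249 (1%) and once in that of Mageb16, and DNA methylation was not analysed here.

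Of the same 48 genes, 17 were also under 0.5 in all 8 libraries of the other lines. Beside Pou5f1, Lin28a, Sall4 and Calcr they included Epcam, an epithelial adhesion molecule, at 0 and 0.135 in WT and 22.1 and 23.5 in Q20, and Foxh1, a SMAD partner in Nodal signalling, at 0.0175 and 0.0491 and 12.2 and 7.89. Zscan10, a stem cell zinc finger factor, was at 0.0526 and 0.0614 and 8.64 and 7.89. These 3 were chosen after their values were seen, from a set that its levels define, so they are a description. The reverse pattern, at least 5 in both WT and under 0.5 in both Q20, held for 5 genes.

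**Figure D2:**
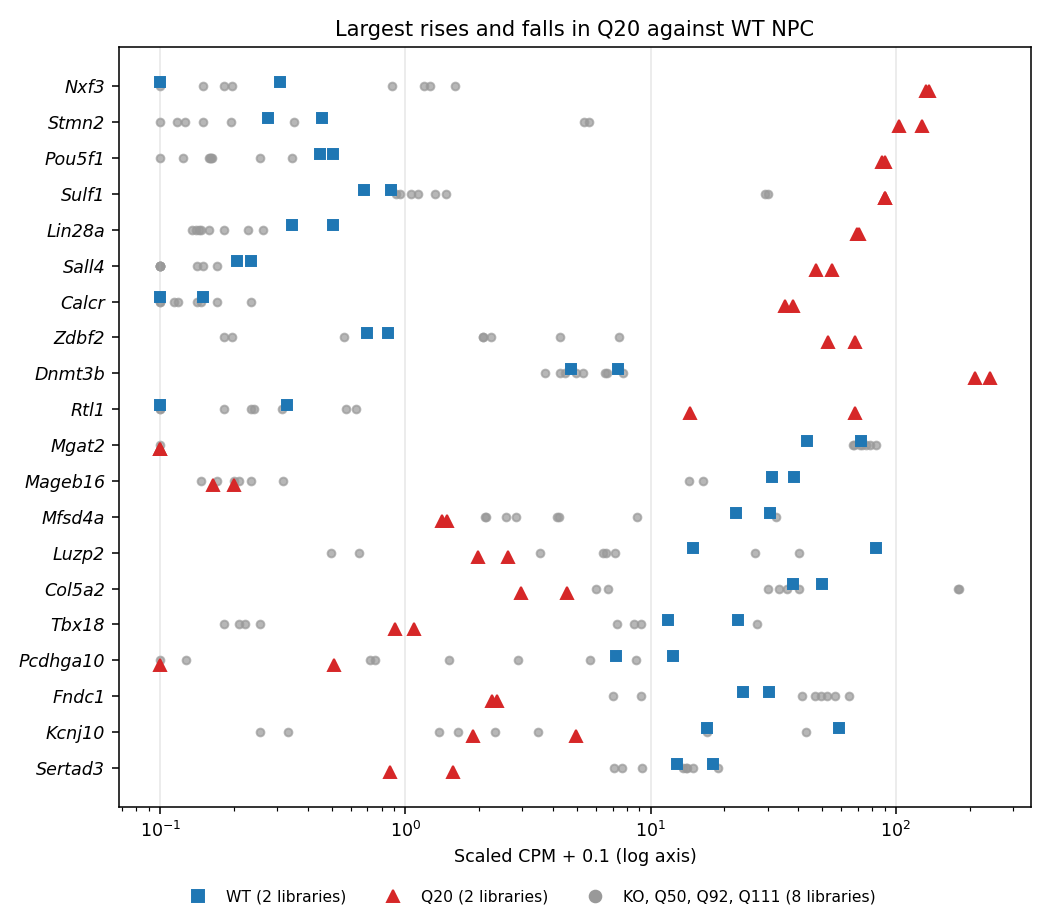
Each point is 1 NPC library and the horizontal log axis is scaled CPM plus 0.1, for the 10 largest rises (top) and the 10 largest falls that the naming rule allows (bottom) in Q20 (triangles) against WT (squares), with the other 4 lines as circles. For Pou5f1 both Q20 libraries lie near 90 and the highest of the other lines is 0.244.

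The 10 largest falls are given next without histone genes, genes with Rik symbols and the like, which the naming rule leaves out. Hist1h4n, so left out, was listed at 0 in each Q20 library beside 59.8 and 325 in WT and was called lower, a call lost without any 1 of these 4 libraries. Also left out was 8030474K03Rik, at 8.32 and 5.67 in WT and 0 and 0.0322 in Q20 and called lower. Mageb16, an X-linked gene of the MAGE family that is mainly expressed in germ cells, was at 38.3 and 31.1 in WT and 0.0994 and 0.0643 in Q20, with 8 and 6 reads left in Q20 (change -5.04, SE 0.16, limma adjusted p = 7.23e-07). Here the other lines ranged from 0.047 to 16.3, so WT was the high group. Col5a2, a fibrillar collagen chain, was at 50.1 and 38 in WT and 4.47 and 2.87 in Q20 (change -3.28, SE 0.21). Fndc1, a fibronectin domain protein, was at 23.8 and 30.3 and 2.26 and 2.14 (change -3.12, SE 0.21), and the other lines held 6.92 to 64.1. Q20 was thus the lowest of the 6 lines for Fndc1. Tbx18, a T-box factor, and Sertad3, a transcriptional coregulator, fell by 3.20 and 2.95 on the log2 scale. These 5 falls were called under every alternative.

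The other 5 of the falls that the rule names lost their call under at least 2 alternatives. Luzp2 was at 82.9 and 14.8 in WT and 2.52 and 1.88 in Q20 and lost its call without Q20 replicate 2. Mfsd4a, on chromosome 1, was at 22.2 and 30.7 and 1.3 and 1.38. Kcnj10, a glial potassium channel also on chromosome 1, was at 58.4 and 16.9 and 4.88 and 1.78. The calls of Mfsd4a and Kcnj10 were lost without either Q20 replicate and once chromosome medians were subtracted (adjusted p = 0.0511 and 0.0768 with limma). Pcdhga10 shares exons with the other genes of the gamma protocadherin cluster, so its reads cannot be assigned with certainty, and its 12.3 and 7.16 scaled CPM in WT and 0.41 and 0 in Q20 are given with that limit. Mgat2, a Golgi glycosyltransferase, is a gene with 1 exon, had 43.2 and 72.1 scaled CPM in WT and was listed at 0 in each Q20 library. It was also listed at 0 in 1 Q111 library beside values up to 82.6 in the others. Several genes with 1 exon were listed at 0 in single libraries of this table, so it is given only as listed at 0, with no fold.

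Most of the defining NPC markers had lower values in Q20 without passing the test, and Olig2 and Egfr passed it. Sox2 was not analysed here. Nes, the intermediate filament of neural progenitors, was at 470.1 and 1105 in WT and 353 and 393 in Q20 (change -0.95, SE 0.41, limma adjusted p = 0.186). Vim was at 1188 and 1529.6 and 907 and 926, Fabp7, a radial glial lipid carrier, at 2499 and 1974 and 1194 and 1266, and Slc1a3, a glutamate transporter, at 2741 and 1844 and 1399 and 1446. None of these 4 nor the neural fate factor Pax6 (64.9 and 37.4 and 37.6 and 33.3) was called, although both Q20 values were below both WT values for Nes, Vim, Fabp7 and Slc1a3. Olig2, a factor of ventral progenitors and the oligodendrocyte lineage, was at 434 and 195 in WT and 31.2 and 60.5 in Q20 and was called lower (change -2.72, SE 0.66, limma adjusted p = 0.0269). Egfr, the receptor for the EGF in the medium, was at 1455 and 705 and 313 and 329 and was called lower too (change -1.66, SE 0.39). The calls of Olig2 and Egfr were lost without either Q20 replicate, without WT replicate 1 and with only the 4 libraries compared (adjusted p = 0.094 and 0.132). Tnc, a matrix glycoprotein of the stem cell niche, was at 3189 and 6157 in WT and 646 and 702 in Q20, a fall of 2.72 (SE 0.32) that was called under every alternative.

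Among 27 tested neural stem and radial glia markers, 2 rose and 5 fell, 25.9% called against 14.5% of all tested genes (2 to 10 genes when 1 replicate was left out), with a median change of -0.47 against -0.017. The risers were Prom1, a membrane protein of progenitor protrusions (25.4 and 28 in WT, 93.1 and 97.3 in Q20, change 1.8, SE 0.14), and Rgcc. The fallers were Tnc, Olig2, Egfr, Nfib and Cdh2. The summed level of the list was 18960 and 17740 in WT and 8437 and 9230 in Q20, and both Q20 sums were below the 11400 to 18440 of the other lines. Counts of this kind cover members that passed the filter on low values, which favours genes high in 1 group, and they describe the lists without testing them.

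Markers of differentiated neural cells moved in a mixed way. Of 17 tested neuron markers, 8 rose and 2 fell, 58.8% called, with a median change of 0.98. Nefl, the light neurofilament chain, was at 0.0876 and 1.22 in WT and 32.8 and 22.4 in Q20 (change 4.18, SE 0.51), and Dcx, a microtubule protein of migrating neuroblasts, at 8.72 and 9 and 38.6 and 52.2 (change 2.22, SE 0.35). In contrast Map2, a dendritic microtubule protein, was at 1593 and 1228 in WT and 599 and 646 in Q20 and fell by 1.17 (SE 0.15). The call of Map2 was lost with only the 4 libraries compared, where 5 neuron markers rose and 0 fell. The neuron list summed to 1767 and 1490 in WT and to 963.1 and 1132 in Q20, since Map2 takes most of the sum; the median and the sum of the list thus had opposite signs. Rbfox3, a marker of mature neurons, stayed low at 1.33 and 0.908 in WT and 1.59 and 1.54 in Q20 and was not called. Of 22 tested astrocyte markers, 5 rose and 1 fell (27.3% called). Gfap, the astrocyte filament, was at 1.8 and 0.773 in WT and 43.1 and 27.8 in Q20 (change 4.00, SE 0.52, limma adjusted p = 0.00116), and Aldh1l1, a folate enzyme of astrocytes, at 70.3 and 33.9 and 235 and 215 (change 2.18). The astrocyte median of 0.8 became -0.014 without WT replicate 2.

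The oligodendrocyte lineage list had 13 tested members, of which 5 rose and 2 fell (53.8% called, and 3 to 7 genes when 1 replicate was left out). Mbp, myelin basic protein, was at 3.26 and 1.68 in WT and 47.6 and 36.5 in Q20 (change 3.66, SE 0.25, limma adjusted p = 3.08e-05). Both Q20 values of Mbp were above both WT values, while the progenitor proteoglycan Cspg4 was lower, at 32.9 and 43.2 in WT and 5.17 and 4.26 in Q20 (change -2.77, SE 0.23). Gpr17, a receptor of committed oligodendrocyte precursors, was at 116 and 11.1 in WT and 546 and 489 in Q20, and with WT libraries this far apart it was not called (limma adjusted p = 0.0553). In bulk RNA, fewer cells of a type and less RNA per cell cannot be told apart, and this holds for every marker here.

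**Figure D3:**
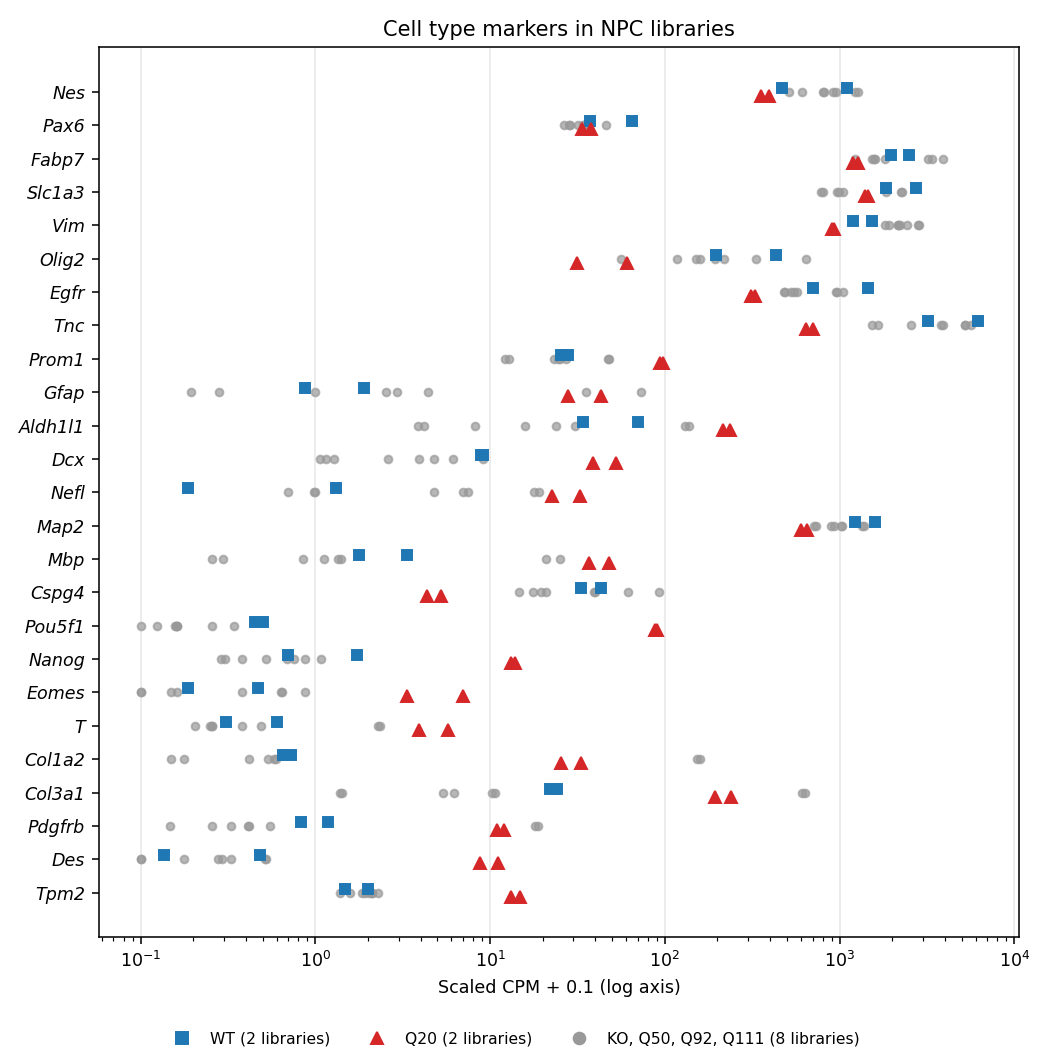
Cell type markers, 1 per line, with scaled CPM plus 0.1 on a log axis and 1 point per NPC library (squares WT, triangles Q20, circles the other 4 lines). Q20 lies below WT for Nes, Tnc and Cspg4 and far above all other libraries for Pou5f1 and Nanog.

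Pluripotency markers were split between genes that were high in Q20 and genes that were low in both groups. Of 21 listed genes, 9 passed the filter, and 4 of these rose (Pou5f1, Lin28a, Sall4 and Nanog) while the other 5 were not called. The share called was 44.4%, against 14.5% of all tested genes. Pou5f1, Lin28a and Sall4 were under 0.5 in every WT library and every library of the other lines. They passed the filter through Q20 alone, so the filter itself raised this share. Nanog, a core factor of the naive state, was at 1.63 and 0.601 in WT and 13 and 13.7 in Q20 (change 2.81, SE 0.23, limma adjusted p = 9.27e-05). Klf4, Klf2, Esrrb and Tbx3, which also belong to the naive network, were at 0.0497 to 3.83 in the Q20 libraries and 0.0701 to 5.89 in the WT libraries. The list summed to 10.88 and 16.68 in WT, 227.4 and 231.8 in Q20 and 11.12 to 39.37 in the other lines. In mESC of the same genotypes, a table scaled separately, Pou5f1 was at 421 and 880.0 in WT and 326 and 433 in Q20. Whether the Q20 NPC hold a share of undifferentiated cells was not tested.

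A few genes of early embryonic lineages rose with them. Of 4 tested early lineage genes, Eomes, T and Fgf5 rose and Gata4 fell (100% called, against 14.5% of all tested genes). Eomes, a T-box factor of the primitive streak, was at 0.0876 and 0.368 in WT and 3.27 and 6.86 in Q20 (change 2.25, SE 0.26). T, the brachyury factor of early mesoderm, was at 0.21 and 0.503 and 5.63 and 3.84 (change 2.07, SE 0.17). The endoderm factor Gata4 was at 0.49 and 1.3 in WT and 0.112 and 0.107 in Q20 and fell (change -0.74), a call lost without either Q20 replicate and without WT replicate 2. All 4 were under 7 scaled CPM in every one of the 4 libraries. Of 11 microglia and blood genes, the 5 in the table summed to 0.2037 to 0.5605 in these libraries, and none passed the filter.

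Several genes of mesenchymal cells rose in Q20. Of 16 tested fibroblast and mesenchyme markers, 7 rose and 0 fell (43.8% called), and of 17 contractile and myofibroblast markers 8 rose and 0 fell (47.1%). The contractile list summed to 1135 and 1510 in WT and 1381 and 1352 in Q20, so its sum overlapped between groups, and 1 of the 7 members with a mean of at least 5 was called when only such genes were tested. Col1a2, a chain of type I collagen, was at 0.631 and 0.552 in WT and 33.1 and 25.4 in Q20 (change 4.24, SE 0.17, limma adjusted p = 2.57e-06). The other lines ranged from 0.0495 to 159 for it, so Q20 was not the highest. Pdgfrb, a growth factor receptor of mesenchymal cells, was at 1.09 and 0.724 and 11.8 and 10.9 (change 2.70). Des, the muscle filament desmin, was at 0.385 and 0.0368 in WT and 11 and 8.66 in Q20 (change 3.17, SE 0.20), and here Q20 stood above the 0.423 that was highest in the other lines. Thbs1 and Tpm2, a matricellular protein and a tropomyosin, rose by 2.75 and 2.51. Other fibroblast genes were not called: Dcn was at 0.963 and 0.479 and 2.4 and 2.28, and Twist1 at 2.57 and 2.53 and 4.47 and 3. The fibroblast list summed to 357.8 and 486.5 in WT and 680.6 and 581.7 in Q20. Its sum was higher in Q50, at 1390 and 1500, and lay from 188.7 to 540.9 in KO, Q92 and Q111. The part of feeder or mesenchymal cells in these changes was not tested.

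The wider collagen and matrix list had 66 tested members, of which 26 rose and 7 fell (50% called), with a median change of 0.53. Its sum was 7632 and 4820 in WT and 6906 and 6503 in Q20, so Q20 lay between the WT libraries. With only the 4 libraries compared, 13 members rose and 2 fell. Type VI collagen rose in 3 chains: Col6a1 was at 3.05 and 4.59 in WT and 74.2 and 66.1 in Q20 (change 3.90, SE 0.22), and Col6a2 and Col6a3 were called higher as well. Col2a1, the cartilage collagen, was at 2.94 and 1.83 and 36.6 and 30.2 (change 3.36, SE 0.35), and Col3a1, a fibrillar chain of soft tissue, at 24 and 21.8 and 239.8 and 194 (change 3.18). The basement membrane chains Col4a1, Col4a2, Col4a5 and Col4a6 rose too. The falls were those of Col5a2 (above), Lamc1, Col12a1, Lama5, Lama4, a laminin chain (21.1 and 31.5 in WT, 7.75 and 6.48 in Q20, change -1.73), the membrane protease Mmp15 (change -1.58, lost without Q20 replicate 2) and the protease inhibitor Timp4 (change -1.47). Col3a1 and Col5a2 lie next to each other on chromosome 1 (chr1:45311538-45349706 and chr1:45374321-45503282 on GRCm38) and moved in opposite directions.

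Regional identity genes moved in both directions. Of 31 tested forebrain, midbrain and hindbrain patterning genes, 10 rose and 6 fell (51.6% called). Otx2, a forebrain and midbrain factor that also acts in the epiblast, was at 0.455 and 0.245 in WT and 14.8 and 16.5 in Q20 (change 3.63, SE 0.28, limma adjusted p = 5.58e-05). Six6, an eye field factor, was at 0 and 0.245 and 4.6 and 4.42 (change 2.30). En2, a midbrain and hindbrain factor, was at 12.6 and 13.8 in WT and 3.63 and 2.56 in Q20 (change -1.81, SE 0.22), and Zic1, a dorsal factor, at 30.2 and 46.4 and 6.22 and 3.06 (change -2.83, lost without Q20 replicate 2). Pax3, a dorsal and neural crest factor, was at 20.1 and 11.5 and 3.76 and 2.27 (change -2.04). The calls of En2, Zic1 and Pax3 were lost with only the 4 libraries compared, where 7 members of the list rose and 0 fell. The members that rose and fell thus came from several regions, and 9 to 17 were called when 1 replicate was left out. Hox genes, which mark the hindbrain and spinal cord, had 21 tested members with 2 rises and 4 falls (28.6% called). These 6 Hox genes lost their call with only the 4 libraries compared, where Hoxb9 was called instead, and 2 to 6 were called when 1 replicate was left out. The list summed to 83.8 and 75.05 in WT and 72.5 and 71.6 in Q20.

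Signalling genes were counted by pathway. Notch signalling, which keeps progenitors from differentiating, had 28 tested genes with 2 rises and 0 falls (7.14% called), and 7 rises and 1 fall without WT replicate 1. Jag2, a Notch ligand, was at 0.771 and 0.994 in WT and 9.29 and 8.93 in Q20 (change 2.43, SE 0.15, limma adjusted p = 2.08e-05). The BMP and TGF-beta list had 4 rises and 3 falls of 40 (17.5%), near the share over all genes, and 4 to 14 called when 1 replicate was left out. With chromosome medians subtracted, 6 members of this list rose and 0 fell. Fst, a secreted activin antagonist, was at 0 and 0.356 and 6.21 and 6.03 (change 2.61), and the ligand Bmp4 at 0.158 and 0.0736 and 1.18 and 1.92 (change 1.18). Of 10 tested Hedgehog genes, 1 rose and 1 fell (20% called, against 14.5% of all tested genes). The ligand Shh rose, from 0 and 0.0368 in WT to 2.52 and 2.28 in Q20 (change 1.74, SE 0.097). The signal transducer Smo fell, from 179.8 and 191 to 117 and 112 (change -0.69, lost without Q20 replicate 2). Leaving out a replicate gave 1 to 5 Hedgehog calls.

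Wnt genes counted 7 rises and 3 falls of 41 tested (24.4% called, and 4 to 13 genes when 1 replicate was left out). Sfrp1, a secreted Wnt antagonist on chromosome 8, was at 16.8 and 17.8 in WT and 101 and 124 in Q20 (change 2.63, SE 0.19, limma adjusted p = 4.54e-05). Lef1, a transcription factor of the pathway, was at 0.123 and 0.27 and 5.18 and 6.15 (change 2.48), and Rspo3, a secreted agonist, at 0.928 and 0.0614 and 7 and 6.18 (change 2.40). The receptor Lgr5 was at 74.2 and 56.6 in WT and 31.5 and 27.5 in Q20, and the feedback target Axin2 at 90 and 84.9 and 57.6 and 57.4; their lower calls were lost without either Q20 replicate and without WT replicate 1. Of 39 EGF and FGF signalling genes, 8 rose and Egfr alone fell (23.1% called, and 5 to 13 genes when 1 replicate was left out). Fgf15, a ligand of the early neural tube, was at 0.123 and 0.0982 in WT and 4.57 and 4.52 in Q20 (change 2.32, SE 0.16), and Erbb3, a neuregulin receptor, at 0.718 and 0.282 and 4.4 and 4.67 (change 1.90). These risers had low levels, under 5 scaled CPM for both genes.

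Many axon guidance ligands and receptors rose, although the sum of the list in Q20, 3240 and 3199, lay between the 4213 and 3115 of WT. Of 66 tested, 24 rose and 1 fell (37.9% called, and 16 to 29 genes when 1 replicate was left out), with a median change of 0.4. Epha1, an ephrin receptor, was at 0.438 and 0.675 in WT and 20.6 and 18 in Q20 (change 3.71, SE 0.17, limma adjusted p = 5.32e-06). Slit3, a repellent ligand, was at 1.02 and 0.982 and 17 and 13.7 (change 3.02), Robo3, a Roundabout receptor, at 0.333 and 0.27 and 10.3 and 8.22 (change 2.97), and Unc5c, a netrin receptor, at 9.25 and 3.45 and 42 and 39.7 (change 2.63). Slit1 and Slit2 were called higher too, so all 3 Slit ligands rose. The single fall was Plxna2, a semaphorin receptor on chromosome 1, at 242 and 342 in WT and 79.3 and 88.3 in Q20 (change -1.77, SE 0.20), which was called under every alternative.

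**Figure D4:**
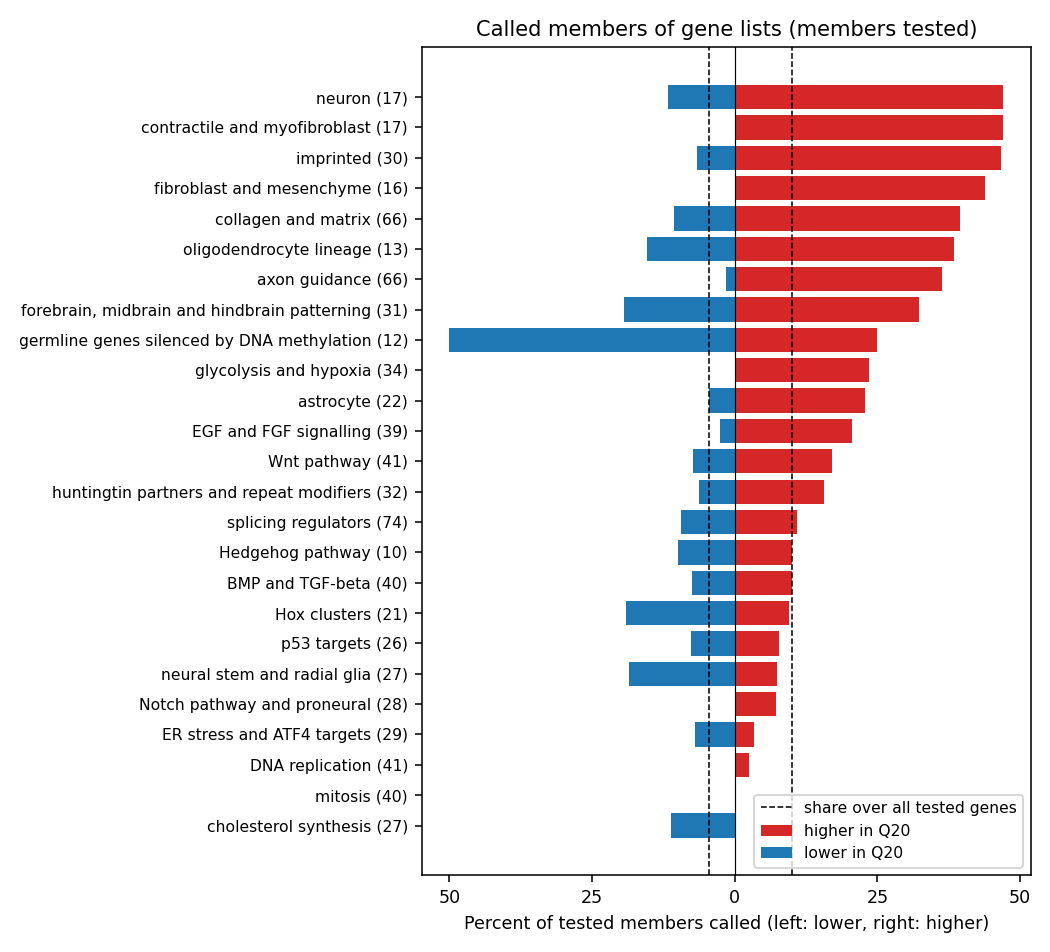
Bars give the percent of tested members of each gene list that were called higher (right) or lower (left) in Q20 NPC, for lists with at least 10 tested members, whose number is in brackets; dashed lines mark 9.97% and 4.57%, the shares over all tested genes. Among these lists the neuron, contractile and imprinted lists have the highest shares called higher, and mitosis has none called.

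Imprinted genes, which are expressed from 1 parental allele, were often higher in Q20. Of 30 tested, 14 rose and 2 fell (53.3% called), with a median change of 0.97. The list summed to 3221 and 4734 in WT and 4297 and 4337 in Q20, so its sum in Q20 lay between the WT libraries. Peg3, a paternally expressed zinc finger gene, was at 179 and 243 in WT and 918 and 1149 in Q20 (change 2.30, SE 0.30, limma adjusted p = 0.00133). Snrpn, a small nuclear ribonucleoprotein gene of the Prader-Willi region, was at 37.9 and 26.3 and 327 and 329.7 (change 3.34, SE 0.16). Snurf shares its transcript with Snrpn, so its rise is not separate. Igf2, a fetal growth factor, was at 1.54 and 0.871 in WT and 9.26 and 7.86 in Q20 (change 2.13), while its clearance receptor Igf2r was at 179 and 333 and 58.3 and 51.5 (change -2.14, SE 0.29). The call of Igf2r was lost with only the 4 libraries compared, where 10 imprinted genes rose and 0 fell. With Calcr, Zdbf2, Rtl1 and Magel2 (0.175 and 0.0491 and 15.6 and 16.7), the risers came from chromosomes 1, 6, 7 and 12 among others. Other imprinted genes showed no call, among them Gnas (1316 and 1265 and 1177 and 1083), Ube3a (130.3 and 157 and 111 and 151) and Grb10 (41.8 and 19.7 and 20.7 and 21.5). Peg3, Snrpn and Igf2 are named outside the rule for named genes, after their values were seen.

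Germline genes that DNA methylation normally silences were called in both directions. Of 47 listed, 12 passed the filter, and 3 of these rose and 6 fell (75% called, against 14.5% of all tested genes). Nxf3 and Mageb16 (above) stand at opposite ends. They alone kept their calls with only the 4 libraries compared, where 1 member of the list rose and 1 fell. Stag3, a meiotic cohesin subunit, was at 23.9 and 22.5 in WT and 7.6 and 7.57 in Q20 (change -1.49, SE 0.18, limma adjusted p = 0.000722), and Brdt, a testis bromodomain protein, at 2.72 and 1.77 and 5.8 and 4.73 (change 0.96, lost without Q20 replicate 1 or WT replicate 2). Beside Dnmt3b, the other methyltransferases Dnmt1 (209.5 and 719 in WT, 287 and 293 in Q20) and Dnmt3a (223 and 201, 102 and 195) and the dioxygenase Tet1 (64.7 and 57.5, 68.4 and 73.8) were not called.

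Genes tied to huntingtin and to splicing, the subject of the series, changed in part. Their shares called stand beside 14.5% of all tested genes. Of 32 tested huntingtin partners and repeat modifiers, 5 rose and 2 fell (21.9% called, and 3 to 9 genes when 1 replicate was left out). Kif5c, a kinesin motor, was at 21.2 and 14.5 in WT and 104 and 103 in Q20 (change 2.49, SE 0.28, limma adjusted p = 0.000543), and Sh3gl3, an endophilin that binds huntingtin, at 14.6 and 13.9 and 54.9 and 44.3 (change 1.72, SE 0.21). Hip1, a clathrin adaptor and huntingtin interactor, was at 556 and 1115 in WT and 304 and 309 in Q20 (change -1.36), a call lost without either Q20 replicate. Of 74 splicing regulators, 8 rose and 7 fell (20.3% called, and 5 to 18 genes when 1 replicate was left out), with a median of -0.2. The risers were mostly neuronal proteins at low levels, such as Celf4 (0.788 and 1.07 in WT, 5.8 and 6.55 in Q20, change 1.90) and Khdrbs2 (0.963 and 0.0736, 4.97 and 5.47, change 2.10). The fallers were abundant factors such as Hnrnpu (1158 and 1307, 714 and 875, change -0.64) and Hnrnpf (195 and 212, 83.9 and 91.4, change -1.20), and both lost their calls without Q20 replicate 1 or WT replicate 2. With chromosome medians subtracted, 8 splicing regulators rose and 5 fell, and 3 huntingtin partners and repeat modifiers rose and 1 fell. Over all 13206 tested genes, 1656 were called in that setting.

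The calls of cell division genes depended on which WT library was kept. Of 41 DNA replication genes only Gins3 rose (2.44% called), a call lost without either Q20 replicate or without WT replicate 2, and of 40 mitosis genes 0 were called by limma, with 3 at an unadjusted p under 0.05, 0 called by edgeR and 3 by DESeq2. Without WT replicate 1 there were 9 falls and 1 rise among the replication genes and 7 falls among the mitosis genes. Without WT replicate 2 there were 9 rises and 0 falls among the replication genes. The medians of both lists turned from -0.16 and -0.21 to 0.77 and 0.45 without WT replicate 2. Among 34 glycolysis and hypoxia genes 8 rose and 0 fell (23.5% called, and 4 to 11 genes when 1 replicate was left out), and Slc2a1, the main glucose transporter of the list, was at 9.14 and 29.5 in WT and 146 and 135 in Q20 (change 3.01, SE 0.45, limma adjusted p = 0.00258). The glycolysis median of 0.16 became -0.13 without WT replicate 1. With only the 4 libraries compared, 0 glycolysis and hypoxia genes were called, so the call of Slc2a1 was lost there. Of 27 cholesterol synthesis genes 0 rose and 3 fell (11.1% called), among them Insig1, a sterol sensor, at 134 and 181 in WT and 45.7 and 48.4 in Q20 (change -1.71, SE 0.21), which was called under every alternative.

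The other lines were compared with each group in turn. In a contrast of Q20 with the mean of KO, Q50, Q92 and Q111, 3388 genes were called (25.7%), 1994 higher (15.1%) and 1394 lower (10.6%), and in the same contrast of WT with these 4 lines 543 were called (4.11%), 241 higher (1.82%) and 302 lower (2.29%). The former count was 1307 without Q20 replicate 1 and 1526 without Q20 replicate 2. The latter was 220 without WT replicate 1 and 3436 without WT replicate 2, so it depends on which WT library is used. Both contrasts share a group with the main comparison, so they are given side by side only. The 10 largest rises were all called in Q20 against the other lines, and Sulf1 alone in WT against them. Pou5f1, for example, differed by 6.38 (SE 0.091) between Q20 and the other lines and by 0.35 (SE 0.091) between WT and these. Of the 10 falls named above by the rule, 5 were called in Q20 against the other lines (Mgat2, Mageb16, Col5a2, Fndc1 and Sertad3) and 4 in WT against them (Mageb16, Luzp2, Tbx18 and Kcnj10). Gria4, an AMPA receptor subunit, fell in the main comparison from 133 and 130.0 to 39.5 and 38.2 (change -1.74); it differed by 1.40 (SE 0.11) for WT and -0.33 (SE 0.11) for Q20 against the other lines, where only the former was called.

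The same genotypes were also compared in mESC, the cells the NPC were made from. There 45 of 13916 tested genes were called (0.323%), 36 higher (0.259%) and 9 lower (0.0647%), and without any 1 of the 4 mESC libraries the count was 0 to 7. Same-numbered mESC libraries deviated together, and 1475 genes were called there with the replicate number as a block. Of 12321 genes tested in both tables, 526 (4.27%) had a Q20 against WT change in NPC that differed from that in mESC, 356 with a more positive change in NPC (2.89%) and 170 with a more negative one (1.38%). This count was 1321 with the replicate block, 61 with only the libraries of the groups compared, and 302 and 311 without NPC Q20 replicate 1 and 2. Pou5f1 rose by 6.03 in NPC and had a difference of -0.69 in mESC that was not called, which gave a contrast between cell types of 6.72 (SE 0.54, limma adjusted p = 3.28e-06). Dnmt3b, at 296 and 295 in WT and 527 and 465 in Q20 mESC, differed by 0.74 there and was not called (adjusted p = 0.115 with limma, and 0.0197 with the replicate block). Col5a2 changed in opposite directions: in mESC it was at 2.87 and 3.26 in WT and 34.5 and 39.4 in Q20, a rise of 3.22 (SE 0.35, limma adjusted p = 0.0166), against the fall of 3.28 in NPC. The mESC grew on fibroblast feeders, and 17 fibroblast and mesenchyme genes summed to 84.1 and 84 in WT and 157 and 205 in Q20 mESC; their part in the mESC rise of Col5a2 was not tested. Nxf3 was higher in Q20 in both cell types, from 3.26 and 2.51 to 19.8 and 14.9 in mESC (change 2.23, SE 0.25). The mESC calls of Col5a2 and Nxf3 were each lost without any 1 of the 4 mESC libraries, where the changes were 3.13 to 3.31 and 2.04 to 2.43. Their limma adjusted p was 0.000964 and 0.00259 with the replicate block, and 0.215 and 0.399 with only the groups compared. Of the 10 largest NPC rises, 9 differed from their mESC change by this test, and Rtl1 did not (limma adjusted p = 0.173). The NPC changes that chose these genes also enter this test, so the count is a description.

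The changes were not centred on 0 for every chromosome. On chromosome 1 the median change over 776 tested genes was -0.38, with 76.9% of genes lower in Q20 and 150 of its 221 calls lower (28.5% of its genes called). On chromosomes 8 and 11 the medians were 0.28 and 0.27, over 708 and 1069 genes. There 16.8% and 15.7% of genes were called, near the 14.5% of all tested genes. The medians of the other 17 chromosomes, X included, lay from -0.099 to 0.058. In single libraries, the chromosome 1 median stood at -0.253 and -0.255 in Q20 and 0.122 and 0.136 in WT, that of chromosome 8 at 0.0428 and 0.00527 in Q20 and -0.323 and -0.215 in WT, and that of chromosome 11 at 0.138 in both Q20 and -0.192 and -0.0742 in WT. Both libraries of a line lay close together, and the other lines did not all side with WT: Q92 and Q111 lay from -0.207 to -0.188 on chromosome 1. On chromosome 8 Q92 was low like WT, at -0.204 and -0.196. On chromosome 11 Q50 was low like WT, at -0.192 and -0.14, and Q111 was high like Q20, at 0.335 and 0.3. In mESC the medians were -0.18, 0.41 and 0.39 on chromosomes 1, 8 and 11. The 3 chromosomes held 508 of the 1920 calls (336 higher and 172 lower) among 2553 tested genes, against 1412 calls among 10653 genes elsewhere. With chromosome medians subtracted 1656 genes were called, 1206 higher and 450 lower. DNA copy number was not analysed here, and its part was not tested.

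**Figure D5:**
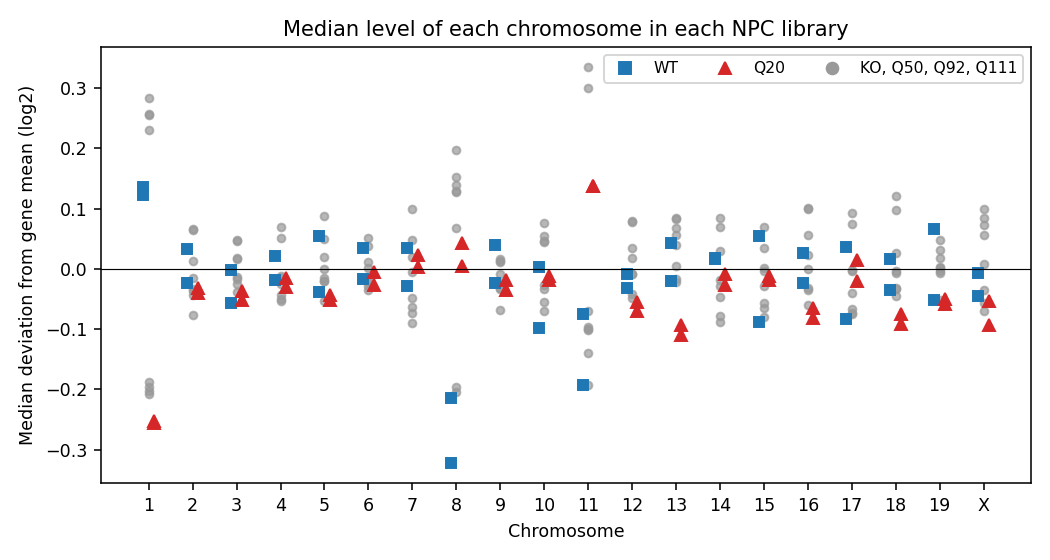
Each point is the median, over the tested genes of a chromosome (horizontal axis), of the deviation of 1 NPC library from the mean of each gene over the 12 libraries (vertical axis, log2); squares are WT, triangles Q20 and circles the other 4 lines. Q20, Q92 and Q111 are low on chromosome 1, WT and Q92 are low on chromosome 8, and Q20 and Q111 are high on chromosome 11.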

How the data were processed

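RNA of 12 NPC and 12 mESC libraries was sequenced as paired-end reads of 75 bases, per the labels. Per the submitters' processing notes, CASAVA 1.8, STAR and the GRCm38.p6 build were used; how reads were counted, and whether by strand, is not given in the sources used here. The deposited values are a scaled CPM signal, in a table for each cell type with 16025 entries for NPC. They do not sum to a common total, and all columns held whole multiples of a step (100% of values within 0.01), which gave back whole reads. Genes with a value of at least 1 in at least 2 of the 12 NPC libraries were tested (13206, with 2818 left out). The test was limma 3.58.1 in R 4.3.3 on log2(value + 1) over all 12 NPC libraries with 1 mean per group, two-sided, with Benjamini-Hochberg adjustment over all tested genes and a threshold of 0.05. Deposited tables were scaled separately, so levels were not compared between cell types. No exact permutation test of 2 against 2 libraries can go below p = 0.333.

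Alternatives were other pseudocounts and filters, median-of-ratios scaling, edgeR 4.0.16 and DESeq2 1.42.0 on the recovered reads, only the 4 libraries compared, a replicate block, and each replicate left out. Replicate numbers pair the mESC libraries, where the replicate differences of all 15 pairs of groups correlated above 0.1 (0.25 to 0.547). In NPC the range was -0.0495 to 0.467, highest between KO and WT and 0.0872 between WT and Q20. Replicates 1 and 2 thus did not differ in a shared way across all NPC groups, though KO and WT did share a part. The main test has no block in either table, so blocked values stand beside the mESC counts. Subtracting chromosome medians was added after seeing the data. The code of the test was also run on simulated data, whose outcome is not given here. Named genes were Htt, the 10 largest rises and falls among called genes without group overlap and with a mean of at least 5 in the higher group (leaving out symbols that start with Gm, Hist, Rpl, Rps or Mir or end in Rik or -ps), defining NPC markers, up to 4 called members per list and direction, and 10 genes with the smallest p for the NPC against mESC difference. The comparison, members and lists were chosen with earlier results of these data known. Gene positions and exons came from GENCODE M21, which held 99.95% of the NPC genes, and promoters from RefSeq. One list member is not reported here.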

Additional observations from a re-analysis of the deposited data

Results flagged for a closer look

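For 18 named genes the Q20 against WT change in NPC differed from that in mESC by the limma test of the difference itself. This difference flagged them, so it is a description. Those named first for a large NPC change, such as Pou5f1 and Mageb16, enter the test with the NPC values that chose them. The differences, NPC minus mESC, were positive for Stmn2 (6.95), Pou5f1 (6.72), Sall4 (6.08), Lin28a (5.99), Sulf1 (5.49), Zdbf2 (5.42), Nxf3 (4.71), Mdk (4.52), Dnmt3b (4.31) and Calcr (4.15). They were negative for Col5a2 (-6.50), Mageb16 (-5.46), Pcdhga10 (-3.99), Cspg4 (-3.81), Gria4 (-3.58), Col12a1 (-3.34), Ccdc80 (-3.33) and Fndc1 (-2.22).

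Mdk, the growth factor midkine, was at 1.28 and 0.614 scaled CPM in WT and 35.9 and 32 in Q20 NPC (change 4.19, SE 0.22), and at 83.4 and 80.5 in WT and 65.5 and 63.8 in Q20 mESC (change -0.34, SE 0.17, limma adjusted p = 0.479). Ccdc80, a matrix protein, moved in opposite directions: 78.2 and 87.1 in WT and 31.8 and 29.5 in Q20 NPC (change -1.40) against 0 and 0.0885 in WT and 3.02 and 2.94 in Q20 mESC (change 1.93, limma adjusted p = 0.0304). Col12a1, a collagen that lies between fibrils, showed the same pattern, at 17.1 and 26.5 and 10.7 and 10.9 in NPC and 0.742 and 1.19 and 7.74 and 11.4 in mESC, but its NPC call was lost without either Q20 replicate and without WT replicate 2. The mESC calls of Ccdc80, Col12a1 and Gria4 were each lost without any 1 of the 4 mESC libraries. Their limma adjusted p in mESC was 0.0053, 0.00101 and 0.00452 with the replicate block, and 0.376, 0.376 and 0.412 with only the groups compared. Gria4 was called lower in Q20 NPC (change -1.74) and higher in Q20 mESC (change 1.84, limma adjusted p = 0.0343). Mageb16 varied between mESC replicates, at 41.1 and 9.51 in WT and 15.9 and 46.2 in Q20, so its difference rests on the NPC fall. Pcdhga10 carries the limit of its shared exons.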

How the results depend on the processing

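No called gene named here reversed its direction under any alternative. The 1920 NPC calls of Q20 against WT became 809 (436 higher, 373 lower) for genes with a mean of at least 5, and 476 (419 and 57) with only the 4 libraries compared. DESeq2 called 1157 genes lower instead of 603. Leaving out a replicate gave 1014 to 2846 calls, 803 to 1699 higher and 211 to 1147 lower, and the replicate block 1915. For Q20 against the other lines, the mean of at least 5 gave 2075 and leaving out a replicate 1307 to 1526. For WT against the other lines the values were 269, 325 with only the groups compared, and 220 to 3436. The count of NPC against mESC differences was 186 with the mean of at least 5, 815 with no filter, 61 with only the groups compared, 1321 with the replicate block and 302 to 661 without a replicate. In mESC, edgeR called 12 genes and the replicate block 1475. With only the groups compared limma called 0 there (1097 at an unadjusted p under 0.05), and without a replicate 0 to 7. Some of these counts rose with fewer libraries and others fell, and the cause was not tested.

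Of 152 named genes, 82 lost their call with only the 4 libraries compared, 48 and 43 without Q20 replicate 1 and 2, 16 and 24 without WT replicate 1 and 2, 23 with edgeR and 15 with chromosome medians subtracted. Medians of 30 gene lists changed sign in 6 and 7 cases without WT replicate 1 and 2, in 3 without Q20 replicate 1, in 5 of 28 with a mean of at least 5 and in 2 with chromosome medians subtracted. With 2 libraries per group, their number limits precision.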

Other observations

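Further genes that stood out by level in Q20 NPC were chosen after their values were seen. Lin28b, the paralog of Lin28a, was at 0.228 and 0.295 scaled CPM in WT and 26 and 22.5 in Q20 (change 4.32, SE 0.26, limma adjusted p = 1.68e-05), although the other lines reached 17.6. Igf2bp1, an RNA-binding protein of fetal tissues, was at 5.13 and 7.99 and 81.3 and 144 (change 3.88), and Trim71, a repressor of differentiation mRNAs, at 4.1 and 11.9 and 103 and 111 (change 3.74, lost without either Q20 replicate). Crabp2, a retinoic acid carrier, was at 0 and 0.245 in WT and 23.7 and 15.4 in Q20 (change 4.17), and Trh, the precursor of thyrotropin-releasing hormone, at 0.0526 and 0.307 and 27.3 and 21.5 (change 4.43). Cdh1, the epithelial cadherin, was at 1.35 and 0.0368 in WT and 12.9 and 12.9 in Q20 (change 3.15), with an adjusted p over 0.05 by edgeR and with only the 4 libraries compared.

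Stress lists had shares called near the 14.5% of all tested genes. Of 29 ER stress and ATF4 targets 1 rose and 2 fell (10.3% called, and 0 to 9 genes when 1 replicate was left out): Atf3, a stress-induced factor, was at 1.4 and 0.552 in WT and 10.7 and 7.46 in Q20, and the chaperone Hspa5 at 654 and 978 and 429 and 461. Of 26 p53 targets 2 rose and 2 fell (15.4%, and 1 to 8 genes when 1 replicate was left out), among them Perp, a desmosome gene, at 0.193 and 0.491 and 3.52 and 10.3. Shares were higher in 3 small lists. Neural crest markers had 3 rises and 1 fall of 7 tested (57.1% called) and ependymal markers 2 rises of 4 (50%). Endothelial and mural markers had 1 rise of 4 (25%). All of these risers were under 7 scaled CPM, and with so few members 1 gene moves the share greatly.

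Genes with 1 exon, 4.47% of tested genes, were over-represented among values listed at 0. In Q20, 13 genes were at 0 in 1 library and at least 20 in the other, and 13 of these had 1 exon; in WT it was 22 of 23. Fzd1, a Wnt receptor with 1 exon, was listed at 0 in both WT libraries and at 45.7 and 36.1 in Q20, and Hist1h4n at 0 in both Q20 libraries and 59.8 and 325 in WT. These zeros are given as listed, with no fold.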
